A study of Drosophila melanogaster with 8 samples.

Results

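The comparison described here sets the 4 male RNA-seq libraries of the study against the 4 female ones, which are all 8 of its libraries with gene expression tables. A library was placed by the sex in its title, and fru status, which each sex holds at 2 fru+ and 2 fru- libraries, entered the fit as a block. The question was which genes differ between male and female brain cells regardless of fru, and on which chromosomes they lie. The 4 groups were male fru+, male fru-, female fru+ and female fru- cells, with 2 replicates each.

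All flies were w1118 adults of 2 to 7 days that carried UAS-mCD8-GFP over MB247-Gal80, with Fru-GAL4 in a single copy, so the male and female groups share every transgene. Fru-GAL4 stood over a balancer chromosome, TM2 or TM6B, and which libraries had which is not given. Fru-GAL4 drives a membrane-bound GFP in cells that use the P1 promoter of fruitless. MB247-Gal80 blocks it in the Kenyon cells of the mushroom body, which are therefore sorted as fru- even where they express the gene. The optic lobes were removed. Each library came from cells pooled from many brains of a single sex, taken from flies housed in mixed-sex groups, and for each replicate number both sexes were dissected and sorted together. The fru+ and fru- cells of a sex and replicate number were sorted from the same brains. A male inherits its X chromosome from its mother alone, while a female inherits an X from each parent, so sex and the parental origin of the X cannot be told apart in these libraries. In bulk RNA, fewer cells of a type and less RNA per cell cannot be told apart either.

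In Drosophila, males carry a single X and females a pair. In males, the MSL complex, built from the protein MSL2, its partners and the noncoding RNAs roX1 and roX2, coats the X and raises its transcription so that its output is close to that of the female pair. In females, the RNA-binding protein Sxl blocks the translation of msl-2 and directs the splicing cascade through tra that ends in the sex-specific forms of dsx and fru.

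The male libraries held 3.59 to 4.93 Gb of aligned sequence and the female libraries 3.16 to 3.76 Gb. The part of this difference in the results was not tested. The TPM of the 17137 reference genes summed to between 956415 and 985750. TPM is a level scaled to transcript length and to the sum of the library. A gene was tested if 2 or more of the 8 libraries had 1 TPM or more of it, which held for 10111 genes. Every log2 difference below is the male minus the female mean of log2(TPM + 1). No read counts were used, so single values have no counting interval. The markers of neurons summed to 4050 to 4874 TPM in male libraries and 2604 to 5006 TPM in female libraries, and those of glia, which the label of the tissue does not name, to 768 to 1958 TPM in male and 524 to 2554 TPM in female libraries. Both the lowest neuronal and the highest glial sum belonged to female fru- replicate 1, and the sexes overlapped in both lists. Of the 7 hemocyte markers 5 were under 1 TPM in every library, as were 5 of the 7 fat body markers, and the muscle list summed to 1.85 to 5.72 TPM in male and 4.34 to 20.3 TPM in female libraries, the highest again in female fru- replicate 1. The part of these cell types in the results was not tested.

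Between male and female brain cells, 24 genes passed a limma adjusted p of 0.05, and 22 of them lie on the X. Of these genes 18 were higher in males, which is 0.178% of the genes tested, and 6 were lower in males, which is 0.0593%. The X accounted for 16 of the genes higher in males and for all 6 that were lower, and the remaining 2, msl-2 on 2L and Eip78C on 3L, were higher in males. For all 24 genes, the 4 male values did not overlap with the 4 female ones. This rests on the same values as the threshold and is no separate support for it. Over all genes tested, 2.1% had every male library above every female library, and 1.14% had every male library below every female library. Of the 24 genes 19 are annotated as protein coding. At an unadjusted p under 0.05 there were 740 genes, with 4.73% of all tested genes higher and 2.59% lower in males.

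**Figure D1:**
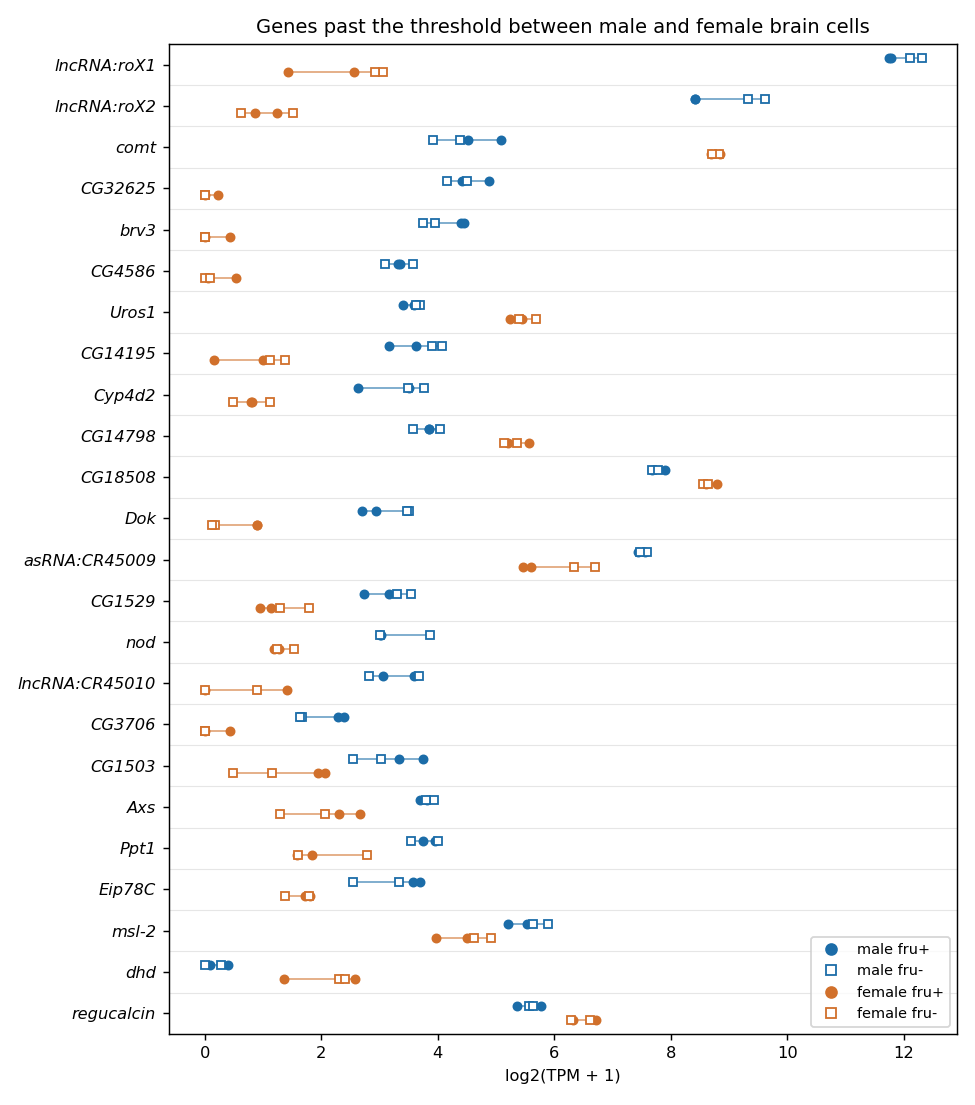
Level of the 24 genes past the threshold in each library, as log2(TPM + 1), in order of p from the top. Blue marks are male and orange marks female libraries, filled circles fru+ and open squares fru- cells, and lines join the lowest and highest library of a sex; in no gene do the lines of the sexes overlap, and roX1 lies at 3452 to 5067 TPM in males against 1.71 to 7.32 TPM in females.

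The noncoding RNAs of the dosage compensation machinery separated the sexes furthest. lncRNA:roX1 (FBgn0019661, X, 3857230 to 3862697 on the minus strand of dm6) was at 3452 and 3523 TPM in male fru+ and 5067 and 4423 TPM in male fru- cells, against 4.93 and 1.71 TPM in female fru+ and 7.32 and 6.60 TPM in female fru- cells. Every male library was above every female library by a wide margin. The log2 difference was 9.49 (standard error 0.21, limma adjusted p = 7.66e-10), and the male mean was 801 times the female mean. lncRNA:roX2 (FBgn0019660, X, 11579065 to 11580432, plus strand) was at 342 and 339 TPM in male fru+ and 785 and 639 TPM in male fru- cells, against 0.815 and 1.36 TPM in female fru+ and 1.87 and 0.548 TPM in female fru- cells. Its male fru- libraries were the highest, and again the sexes did not overlap. Males exceeded females by 7.88 on the log2 scale (standard error 0.25, limma adjusted p = 1.87e-08). By both RNAs, each of the 8 libraries matched its labelled sex.

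msl-2 (FBgn0005616, 2L, 3462218 to 3466112, minus strand), which encodes the RING finger protein of the complex, was the only gene on 2L past the threshold. It was at 35.8 and 45.4 TPM in male fru+ and 48.6 and 58.6 TPM in male fru- cells, against 21.7 and 14.6 TPM in female fru+ and 23.6 and 29.2 TPM in female fru- cells. The transcript was thus present in all female libraries, at levels below the lowest male one. The log2 difference was 1.07 (standard error 0.17, limma adjusted p = 0.031). The adjusted p was 0.0511 with the replicate number added as a block and 0.0461 in a block of 4 male and female pairs. The other 5 of the 8 genes of the dosage compensation list, which hold the remaining proteins of the complex and the DNA-binding factor Clamp, did not pass. Of these msl-1, a scaffold of the complex, averaged 12.4 TPM in males and 10.4 TPM in females (a log2 difference of 0.25). The RNA helicase gene mle averaged 82.0 TPM in males and 77.6 TPM in females (a log2 difference of 0.08), and the histone acetyltransferase gene mof 9.78 TPM in males and 9.11 TPM in females (a log2 difference of 0.12). msl-3 averaged 22.8 TPM in males and 22.6 TPM in females, and Clamp 72.0 TPM in males and 71.2 TPM in females, with log2 differences of -0.01 each. The median log2 difference of the list was 0.18, beside 0.04 over all genes tested.

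None of the 12 tested genes of the sex determination list, which holds 14, passed the limma threshold, and 1, dsx, had an unadjusted p under 0.05. Sxl, the switch gene on the X, averaged 112 TPM in males and 123 TPM in females (a log2 difference of -0.17, limma adjusted p = 0.91), tra 80.4 TPM in males and 82.7 TPM in females, and tra2, its splicing partner, 56.5 TPM in males and 52.0 TPM in females. These are levels summed over all transcripts of a gene, and the splice forms by which these genes differ between the sexes were not analysed here. dsx, which encodes the transcription factor at the end of the cascade, was at 7.42 and 5.93 TPM in male fru+ and 0.758 and 4.64 TPM in male fru- cells, against 0.419 and 0.599 TPM in female fru+ and 0.317 and 0.255 TPM in female fru- cells. The lowest male library, fru- replicate 1, stood close to the female ones, but the sexes did not overlap. The log2 difference of 1.82 (standard error 0.39) had a limma adjusted p of 0.113. Of 21 alternatives dsx passed in 1, the fit without that library (limma adjusted p = 0.0132). The other fits that left out a library gave limma adjusted p of 0.137 to 0.402. It was 0.152 with the replicate number added as a block and 0.136 in the block of 4 pairs. fru itself averaged 33.7 TPM in males and 37.9 TPM in females, with a log2 difference of -0.07.

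comt was the gene with the largest difference in the opposite direction. It encodes the N-ethylmaleimide-sensitive factor NSF1, the ATPase that takes apart SNARE complexes after vesicle fusion. comt (FBgn0000346, X, 13259021 to 13262488, plus strand) was at 21.9 and 32.8 TPM in male fru+ and 14.2 and 19.8 TPM in male fru- cells, against 458 and 411 TPM in female fru+ and 453 and 417 TPM in female fru- cells. The female values lay within a narrow range, and every male library was far below them. The log2 difference was -4.29 (standard error 0.18, limma adjusted p = 2.31e-07), and the female mean was 19.6 times the male mean. Its paralog Nsf2 on 3R averaged 26.5 TPM in males and 25.9 TPM in females (a log2 difference of 0.04, limma adjusted p = 0.978). The cofactor alphaSnap averaged 1712 TPM in males and 1747 TPM in females, and the SNARE gene Syx1A averaged 1211 TPM in males and 1129 TPM in females. comt was the only gene of the 20 tested in the vesicle fusion list to pass, with a median log2 difference of -0.03 over the list. Of the genes on either side of comt, mew averaged 12.7 TPM in males and 8.33 TPM in females, and HDAC4 averaged 19.3 TPM in males and 22.3 TPM in females, and neither passed.

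Uros1, which encodes uroporphyrinogen III synthase of the heme pathway, was also lower in males. Uros1 (FBgn0030066, X, 8898554 to 8900264, minus strand) was at 11.1 and 9.58 TPM in male fru+ and 11.9 and 11.4 TPM in male fru- cells, against 36.8 and 42.9 TPM in female fru+ and 50.8 and 41.0 TPM in female fru- cells. The male libraries were close to each other and all were below the female ones. This gave a log2 difference of -1.87 (standard error 0.16, limma adjusted p = 0.000173). It was the only one of 8 genes of the heme list past the threshold. The next enzyme of the pathway, Updo, averaged 119 TPM in males and 105 TPM in females, and the first, Alas, 102 TPM in males and 86.2 TPM in females.

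The other 4 genes lower in males were smaller in difference or in level. CG18508, the most highly expressed of them, had 205, 239, 204 and 220 TPM in the male libraries and 390, 444, 375 and 399 TPM in the female libraries (log2 difference -0.89, standard error 0.10, limma adjusted p = 0.00277). The female mean was 1.85 times the male mean. The pseudogene CG14798 had 11.0 to 15.5 TPM in males and 34.2 to 46.6 TPM in females (a log2 difference of -1.48, limma adjusted p = 0.00277). It overlaps the gene a6 on the other strand, which averaged 28.2 TPM in males and 22.2 TPM in females. regucalcin, whose product binds calcium, had 40.3 to 54.0 TPM in males and 77.0 to 104 TPM in females (a log2 difference of -0.90, limma adjusted p = 0.0339, and 0.0511 with the replicate number added as a block). dhd, a thioredoxin known from the female germline, was far below the filter of 1 TPM in males, at 0.0719, 0.313, 0.219 and 0 TPM, against 4.99, 1.57, 3.93 and 4.29 TPM in females (a log2 difference of -1.97, limma adjusted p = 0.032). Its adjusted p was 0.0534 with the replicate number added and 0.0673 in the block of 4 pairs. Its neighbour TrxT, the thioredoxin of the male germline, averaged 2.81 TPM in males and 3.20 TPM in females.

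Most of the genes higher in males were of low level, and 13 of the 18 averaged under 20 TPM in males. In 5 of the 18, CG32625, brv3, CG4586, CG3706 and Dok, every female library was under 1 TPM, so that they met the filter through the male libraries alone and could only come out higher in males. With dhd, which met it through the female libraries alone, this leaves 13 genes higher and 5 lower in males, 16 of them among the 22 on the X counted above, that reached 1 TPM in both sexes. CG32625 (FBgn0052625, X, 13756164 to 13756826, minus strand) was at 20.4 and 28.6 TPM in male fru+ and 16.8 and 21.6 TPM in male fru- cells. In females it was listed at 0.179 TPM in fru+ replicate 1 and at 0 in the other 3 libraries. The log2 difference was 4.43 (standard error 0.24, limma adjusted p = 2.39e-06). brv3, of the brivido family of channels related to TRP channels, had 12.5 to 20.8 TPM in the male libraries, and was at 0.356 TPM in female fru+ replicate 1 and 0 in the other female libraries. Its log2 difference was 4.03 (standard error 0.24, limma adjusted p = 5.45e-06). The size of both depends on the pseudocount, and with 0.1 in place of 1 it was 6.83 for brv3 and 7.38 for CG32625. CG4586 had 7.58 to 10.9 TPM in males and 0 to 0.445 TPM in females, and CG3706 had 2.12 to 4.28 TPM in males and 0 to 0.354 TPM in females. Both were higher in males, with log2 differences of 3.16 and 1.89 (limma adjusted p = 0.000121 and 0.0124).

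Dok encodes an adaptor protein downstream of tyrosine kinases. It was at 6.70 and 5.52 TPM in male fru+ and 10.4 and 10.1 TPM in male fru- cells, against 0.854 and 0.870 TPM in female fru+ and 0.129 and 0.0962 TPM in female fru- cells (a log2 difference of 2.63, standard error 0.31, limma adjusted p = 0.00323). The female fru- libraries were the lowest and the male fru- libraries the highest. Cyp4d2, a cytochrome P450, had 5.20 to 12.6 TPM in males and 0.396 to 1.18 TPM in females (a log2 difference of 2.54, limma adjusted p = 0.00277). It lies between asRNA:CR45479 and another P450 gene, Cyp4ae1, at distances of 151 and 279 bases on the same strand. Both neighbours were just outside the threshold with males above females. Cyp4ae1 had 25.6 to 36.3 TPM in males and 14.3 to 18.0 TPM in females (limma adjusted p = 0.0607, and 0.0483 with the replicate number added as a block), and asRNA:CR45479 had 4.53 to 7.23 TPM in males and 0.624 to 2.18 TPM in females (limma adjusted p = 0.0636). CG14195 and CG1529 were higher in males as well, at means of 12.2 and 8.26 TPM in males against 0.978 and 1.51 TPM in females, with log2 differences of 2.77 and 1.89 (limma adjusted p = 0.000502 and 0.00556).

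A noncoding pair lay at the proximal end of the X. asRNA:CR45009 (X, 23007672 to 23009452, plus strand) was at 187 and 172 TPM in male fru+ and 193 and 177 TPM in male fru- cells, against 43.2 and 47.3 TPM in female fru+ and 103 and 79.9 TPM in female fru- cells (a log2 difference of 1.49, standard error 0.18, limma adjusted p = 0.00442). The male libraries were close together, while the female fru- libraries were above the female fru+ ones. lncRNA:CR45010, 1520 bases away on the same strand, had 6.04 to 11.8 TPM in males and 0 to 1.67 TPM in females (a log2 difference of 2.71, limma adjusted p = 0.00941). Both overlap FucTC on the opposite strand, an alpha-1,3-fucosyltransferase gene, which averaged 8.22 TPM in males and 2.18 TPM in females and did not pass (log2 difference 1.57, limma adjusted p = 0.0951). The libraries were unstranded, so reads of these RNAs and of FucTC cannot be told apart. Overlap with another reference gene was found for 15 of the 24 genes.

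nod and Axs, which are known for the segregation of chromosomes in female meiosis, were both higher in male brain cells. nod, a kinesin-like gene that starts 340 bases after the end of roX2 on the same strand, had 7.16, 7.02, 7.10 and 13.6 TPM in male libraries and 1.42, 1.29, 1.88 and 1.36 TPM in female libraries (a log2 difference of 1.92, standard error 0.26, limma adjusted p = 0.00809). On the other side of roX2, at 259 bases, CG11695 averaged 15 TPM in males and 13.7 TPM in females (a log2 difference of 0.10, limma adjusted p = 0.946). Axs had 11.9 to 14.4 TPM in males and 1.46 to 5.34 TPM in females (a log2 difference of 1.73, limma adjusted p = 0.0251, and 0.0511 with the replicate number added as a block). Ppt1, a palmitoyl-protein thioesterase of the lysosome, had 10.7 to 15 TPM in males and 2.01 to 5.92 TPM in females (a log2 difference of 1.86, limma adjusted p = 0.0251). It overlaps CAH3 on the other strand, which averaged 12.2 TPM in males and 11.8 TPM in females. CG1503 had 4.83 to 12.4 TPM in males and 0.402 to 3.21 TPM in females (a log2 difference of 1.74, limma adjusted p = 0.0208).

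Outside the X, the difference was small in number. Eip78C (FBgn0004865, 3L, 21226609 to 21266503, plus strand), an ecdysone-induced gene for a nuclear receptor, had 10.9 and 11.9 TPM in male fru+ and 9.11 and 4.87 TPM in male fru- cells, against 2.51 and 2.32 TPM in female fru+ and 1.59 and 2.45 TPM in female fru- cells. The lowest male library, fru- replicate 2, was still above the highest female one. The log2 difference was 1.61 (standard error 0.26, limma adjusted p = 0.0301). With the replicate number added as a block the adjusted p was 0.0511, and in the block of 4 pairs it was 0.0673. The next autosomal genes in order of p all lie on 2R and did not pass. Hr51, the nuclear receptor also called unfulfilled, averaged 32.2 TPM in males and 15.7 TPM in females (limma adjusted p = 0.0951), Stacl 83.0 TPM in males and 28.9 TPM in females (limma adjusted p = 0.0951) and the phosphodiesterase gene Pde8 20.2 TPM in males and 7.60 TPM in females (limma adjusted p = 0.0967). The sexes overlapped in Hr51 and Stacl and not in Pde8.

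By arm, the X held 1717 of the genes tested and the autosomes 8379. The share past the threshold was 1.28% of X genes and 0.0239% of autosomal genes. At an unadjusted p under 0.05 there were 184 X genes higher and 103 lower in males, together 16.7% of the X genes, against 5.37% of the autosomal genes, of which 293 were higher and 157 lower. Among the autosomal arms the share ran from 4.26% on chromosome 4 to 5.63% on 2L. All 4 male libraries were above all 4 female ones for 89 X genes, 5.18%, and below them for 60, 3.49%. On the autosomes these shares were 1.47% and 0.656%. A log2 difference beyond 1 in either direction was measured for 70 X genes, 4.08%, and 58 autosomal genes, 0.692%. These counts describe genes that share 8 libraries, and no test was run over genes.

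**Figure D2:**
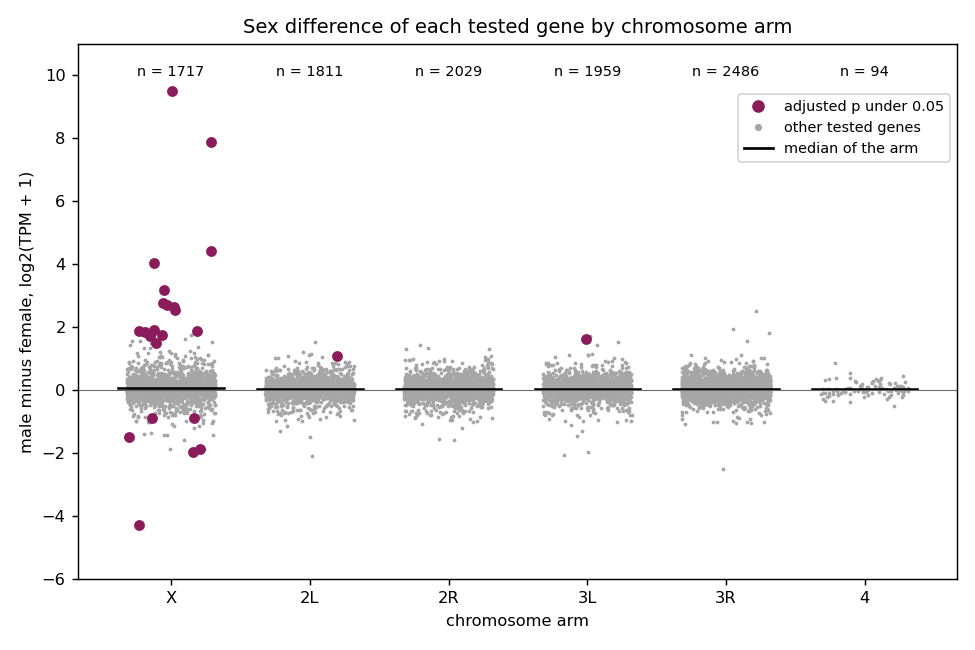
Male minus female difference of each tested gene on the scale log2(TPM + 1), by chromosome arm, with the number of genes tested above each. Purple points passed a limma adjusted p of 0.05 (22 on the X, 1 on 2L and 1 on 3L), grey points did not, and black lines are the median of the arm, which lies at 0.066 for the X and between 0.019 and 0.044 for the other arms.

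For most X genes the difference was small. The median log2 difference was 0.066 over X genes and 0.032 over autosomal genes, and the middle 50% of the X genes ran from -0.15 to 0.27, against -0.11 to 0.19 for the autosomal genes. As a value for each library, the median log2(TPM + 1) of X genes minus that of autosomal genes was -0.216 and -0.291 in male fru+ and -0.150 and -0.218 in male fru- cells, against -0.177 and -0.336 in female fru+ and -0.346 and -0.248 in female fru- cells. The sexes overlapped. The male mean exceeded the female mean by 0.0583 (two-sided exact permutation p = 0.333 over 36 arrangements of sex within fru status, of which the smallest possible p is 0.0556). The X supplied 14.4 ± 0.281% of the TPM in males and 14.2 ± 0.30% in females (SD, n = 4 libraries each, exact permutation p = 0.611). Without roX1 and roX2 the shares were 14.0 ± 0.326% in males and 14.2 ± 0.30% in females (SD, n = 4 each, exact permutation p = 0.389). Over the 7 arms, the smallest p was that of 3R, at 25.5 ± 0.0806% in males and 25.3 ± 0.139% in females (SD, n = 4 each, exact permutation p = 0.0556, and 0.389 after Benjamini-Hochberg adjustment over the arms). All these permutations treat the fru+ and fru- libraries sorted from the same brains as separate. The 54 Y-linked genes in the tables all fell below the filter, and 9 of the 12 named ones, the male fertility factors among them, were listed at 0 in every library.

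The X share was above the autosomal share in each of 3 classes of mean level. Among genes with a mean under 10 TPM, the sexes did not overlap in 11.3% of 647 X genes and 2.85% of 2914 autosomal genes. From 10 to 100 TPM the shares were 6.61% of 771 X genes and 1.64% of 3834 autosomal genes. At 100 TPM and over they were 8.36% of 299 X genes and 1.96% of 1631 autosomal genes. In the last class 12 X genes were higher and 13 lower in males, while in the first 51 were higher and 22 lower. The excess of higher genes at low level was not particular to the X. On the autosomes 56 were higher and 27 lower under 10 TPM, and 15 and 17 at 100 TPM and over. From 10 to 100 TPM, 52 autosomal genes were higher and 11 lower, against 26 and 25 on the X. Of the 22 X genes past the threshold, 13 had a mean under 10 TPM, 4 a mean of 10 to 100 TPM and 5 a mean of 100 TPM or over. In the low class, 18 of the 73 X genes and 27 of the 83 autosomal genes without overlap met the filter through a single sex, so that the filter itself favoured their lack of overlap.

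**Figure D3:**
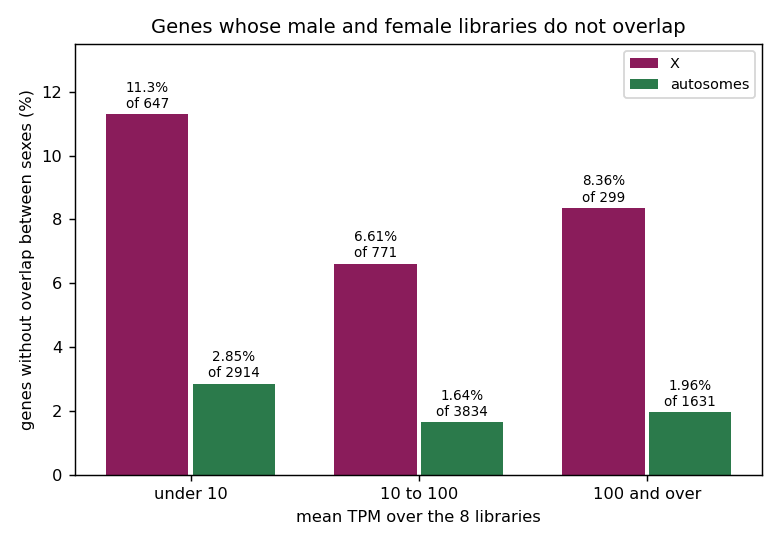
Share of tested genes whose 4 male and 4 female libraries do not overlap, in percent, for X genes (purple) and autosomal genes (green) in 3 classes of mean TPM over the 8 libraries; the number above each bar is the share and the number of genes in the class. The X share is the higher in each class, from 6.61% to 11.3%, against 1.64% to 2.85% for autosomal genes.

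The 22 X genes were spread over the chromosome, from CG3706, which starts at 930931, to lncRNA:CR45010, which ends at 23011293. The median distance between neighbours among them was 684 kb, and 2 of the 21 distances were under 2 kb, those of roX2 with nod and of asRNA:CR45009 with lncRNA:CR45010.

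The size of the sex difference was compared between fru+ and fru- cells, since its sign cannot turn in any subset of the libraries when the sexes do not overlap. For comt it was -3.97 in fru+ and -4.62 in fru- cells, for CG32625 4.54 and 4.33, and for Uros1 -1.85 and -1.88, all on the log2 scale. A test of the interaction of sex and fru status gave 0 genes past a limma adjusted p of 0.05 among all tested. At an unadjusted p under 0.05 there were 237 of the 10111 genes tested. Among the 24 genes 3 had an unadjusted interaction p under 0.05, which is a larger share. The smallest was that of asRNA:CR45009, with a sex difference of 1.96 in fru+ and 1.02 in fru- cells. The others were Dok, with 1.93 in fru+ and 3.34 in fru- cells, and roX2, with 7.37 in fru+ and 8.39 in fru- cells. Each of the 3 had a limma adjusted p of 0.999. The X was also ahead of the autosomes within subsets of the libraries. At an unadjusted p under 0.05 it reached 9.73% of X genes in the 4 fru+ libraries and 9.44% in the 4 fru- libraries, against 3.16% and 3.91% of autosomal genes.

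**Figure D4:**
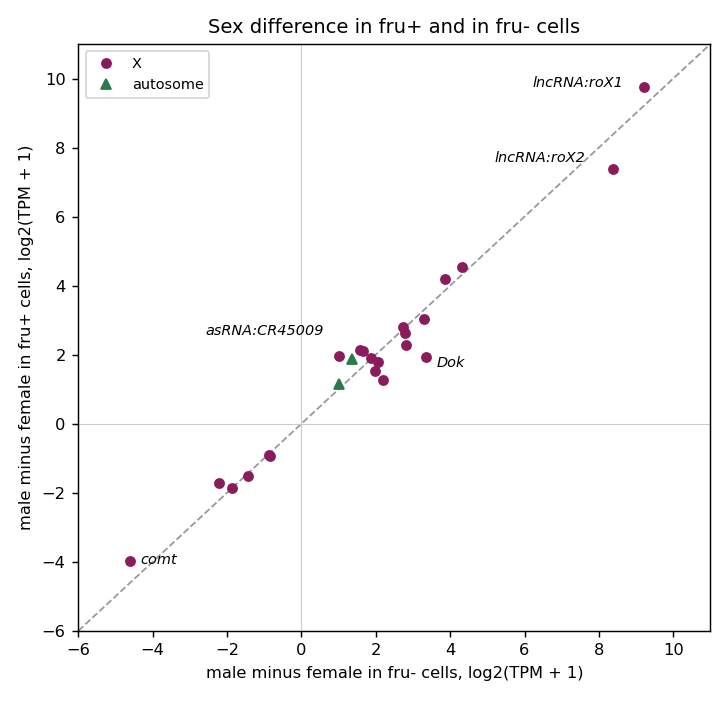
Sex difference of the 24 genes past the threshold in fru+ cells (vertical axis) and in fru- cells (horizontal axis), each as male minus female log2(TPM + 1). Purple circles are X genes, green triangles the 2 autosomal genes, and the dashed line marks equal differences; the sign of each point follows from the lack of overlap between the sexes, and Dok and asRNA:CR45009 are off the line on opposite sides.

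Of the 24 genes 15 passed in each of the 8 fits that left out a library, with roX1, roX2, comt and CG32625 also past the threshold in every other alternative, and 9 did not. lncRNA:CR45010 was lost without male fru+ replicate 2 (limma adjusted p = 0.0562) or male fru- replicate 1 (0.0604). CG1503 was lost in 4 of the fits, without female fru+ replicate 2 or without male fru+ replicate 1, male fru- replicate 1 or male fru- replicate 2 (adjusted p of 0.0774 to 0.104). CG3706 passed without female fru+ replicate 1, female fru- replicate 1 or female fru- replicate 2, and had an adjusted p of 0.0533 to 0.0763 without any of the others. Axs passed without female fru+ replicate 2, female fru- replicate 1 or female fru- replicate 2 (0.0567 to 0.14 otherwise). regucalcin and msl-2 passed without female fru+ replicate 1 or female fru- replicate 2 (0.0627 to 0.144 and 0.0748 to 0.161 otherwise), and Eip78C without male fru- replicate 2 or female fru- replicate 2 (0.063 to 0.155 otherwise). Ppt1 passed only without female fru- replicate 2 (0.051 to 0.131 otherwise) and dhd only without female fru+ replicate 2 (0.0748 to 0.154 otherwise). The members just inside the threshold were msl-2, dhd and regucalcin, and the first outside it was CG4020, with 0.40 to 1.72 TPM in males and 4.67 to 11.5 TPM in females (a log2 difference of -1.88, limma adjusted p = 0.0569), which passed with the replicate number as a block (0.0232).

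Genes of other groups did not pass. The yolk protein genes, expressed in the female fat body, stayed low in both sexes. Yp2 was at 0.167, 0.203, 0.453 and 1.43 TPM in male libraries and 1.92, 0.843, 11.2 and 5.32 TPM in female libraries (a log2 difference of -1.60, limma adjusted p = 0.161), with an overlap between the sexes. Yp1 averaged 3.72 TPM in males and 1.35 TPM in females, and Yp3 1.51 TPM in males and 1.39 TPM in females. Of the 36 neuropeptide genes 35 were tested and 0 passed. By limma, 6 were lower and 2 higher in males at an unadjusted p under 0.05, where 2.59% of all tested genes were lower and 4.73% higher, and the median of the group was -0.27, beside 0.04 over all genes. The smallest p was that of Trissin, at 243 and 268 TPM in male fru+ and 0.455 and 0.244 TPM in male fru- cells, against 234 and 617 TPM in female fru+ and 29.1 and 26.9 TPM in female fru- cells (a log2 difference of -2.50, limma adjusted p = 0.223). The sexes were apart in the fru- libraries, with a log2 difference of -4.43, against -0.57 in fru+ cells, and the difference between these had a limma adjusted p of 0.266, the smallest interaction p of all tested genes. Trissin passed in 3 of the 22 alternatives. These were a mean for each of the 4 groups, the fru- libraries only, and the fit without female fru+ replicate 1 (limma adjusted p = 0.0437). The other fits that left out a library gave limma adjusted p of 0.238 to 0.607. AstCC, an allatostatin C homolog, was at 1.10 and 0 TPM in male fru+ and 5.82 and 1.77 TPM in male fru- cells, against 0.760 and 2.08 TPM in female fru+ and 42.0 and 57.5 TPM in female fru- cells (a log2 difference of -2.11, limma adjusted p = 0.291). Its female fru- libraries were above all the others. Ms, the myosuppressin gene, averaged 541 TPM in males and 709 TPM in females, and the tachykinin gene Tk 264 TPM in males and 197 TPM in females. The 15 heat shock genes gave 0 limma calls, 1 gene higher at an unadjusted p under 0.05, beside 4.73% of all genes, and a median of -0.25, and their sums separated replicates rather than sexes, with 30324 to 45133 TPM in the replicate 1 libraries and 11670 to 22606 TPM in the replicate 2 libraries. The neuronal markers had a median log2 difference of 0.21 and the glial markers of 0.26, with 0 of 8 and 0 of 9 past the limma threshold and 1 and 0 higher in males at an unadjusted p under 0.05, beside 4.73% of all genes. The synaptobrevin gene nSyb was at 2238 to 2580 TPM in males and 1466 to 2373 TPM in females (a log2 difference of 0.50, limma adjusted p = 0.394), and the sexes overlapped.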

How the data were processed

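RNA was sequenced from 8 libraries of sorted central brain cells. Per the labels and the study's methods, polyA RNA gave unstranded libraries, and reads were aligned to dm6 with HISAT2, filtered and passed to StringTie 2.1.1. The authors deposited for each library the coverage signal (mean read depth per base), the FPKM and the TPM of each gene. TPM of reference genes, with rows of the same name added up, were used, and loci assembled from the reads, which sum to a further 1000000 TPM, were not. FPKM deposited by the authors served only, with the coverage, to obtain the aligned bases. Counts behind the authors' own test were not used here.

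log2(TPM + 1) was fitted with limma 3.58.1 (R 4.3.3) on sex and fru status, with a variance trend, 5 residual degrees of freedom and p-values adjusted by Benjamini-Hochberg across all 10111 genes that were tested (threshold 0.05). Values per library were compared by exact permutation of sex within fru status. Of 200 genes changed in simulated data of this design 186 were called, all with the right sign, with 8 false calls. Every simulated difference was larger than that of most genes past the threshold, and the simulated levels had no lower bound. The share called therefore does not hold for smaller differences or for genes near the floor. The simulated libraries were independent, while the real ones shared brains or sort sessions. The false calls therefore give no error rate for these data. The sexes of a replicate number shared a sort session, so the numbers pair the libraries. The correlation of their deviations was 0.204 in fru+ and 0.06 in fru- cells. Between the fru+ and fru- cells of a sex, which came from the same brains, it was 0.249 in males and -0.038 in females. Between female fru+ and male fru- cells it was 0.246. The p-values measure the spread between these libraries. They treat libraries of shared brains as separate, since no fit grouped them by sex and replicate number.

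Named are the genes past the threshold without overlap, the 5 autosomal genes of smallest p, the 3 on either side of the threshold and members of gene lists. Classes of mean level and neighbouring genes were described after values were seen. The comparison and the lists were chosen with earlier results of these data known. Positions and symbols are those of the tables, and 10092 of the tested genes matched the Ensembl annotation of the same assembly. Alternatives were a pseudocount of 0.1, no filter or a mean above 10 TPM, 2 scalings, other designs, replicate blocks, no variance trend, subsets by fru status or replicate, and leaving out each library. Summaries used pandas 2.3.3 with numpy 2.4.6 under Python 3.11.15.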

Additional observations from a re-analysis of the deposited data

Results flagged for a closer look

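In 5 of 78 groups of 4 libraries, a library stood apart from the others of its sex by Dixon's ratio, where chance gives about 1 in 20. In 3 of them, female fru+ replicate 1 was at 0.179 TPM for CG32625, 0.356 TPM for brv3 and 0.354 TPM for CG3706, and the other 3 female libraries were listed at 0, so that the ratio is fixed whatever the value and says nothing of how far the library stands apart. Female fru+ replicate 1 was at 43.7 TPM for Stacl, above the other female libraries. Male fru- replicate 2 was at 13.6 TPM for nod, above the other male libraries.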

How the results depend on the processing

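Since the sexes do not overlap in the 24 genes, their direction could not turn in the 22 alternatives apart from the 2 scalings. In these, which change each library by its own factor, it did not turn either, and only the counts are compared. The genes higher in males numbered 18, and 7 without a filter, 4 with a mean above 10 TPM, 5 in fru+ libraries, 4 in fru- libraries, 10 in replicate 1 and 3 in replicate 2 libraries. The genes lower in males numbered 6, and 2 in fru+ libraries, 2 in fru- libraries and 2 in replicate 2 libraries. The X genes numbered 22, and 11 without a filter, 8 with a mean above 10 TPM, 6 in fru+, 5 in fru-, 12 in replicate 1 and 4 in replicate 2 libraries, where fewer libraries were fitted. The autosomal genes numbered 2 in the main fit. There were 0 without a filter, with a mean above 10 TPM, without the fru term or with the replicate number added as a block. There was 1 in the block of 4 pairs, without the variance trend, in fru+, in fru- and in replicate 2 libraries. The single genes of the last 3 were CG13053, Trissin and ITP, which are not among the 24. A mean for each of the 4 groups gave 3, Eip78C, Stacl and Trissin. Replicate 1 libraries also gave 3, AP-2mu, CG15550 and EndoA. Of the genes in those settings only Eip78C is among the 24. Leaving out a library gave 12 to 23 genes higher and 4 to 10 lower, 15 to 26 on the X and 0 to 7 on autosomes. The upper ends were all without female fru+ replicate 1, where 33 genes passed. The cause was not tested. The replicate block of 4 pairs called 24 genes, 22 of them shared, and that added to fru status 21, with 19 shared. With the replicate number added, the genes lost were msl-2, Eip78C, dhd, regucalcin and Axs. In the block of 4 pairs only Eip78C and dhd were lost, while regucalcin and Axs passed (limma adjusted p = 0.0192 and 0.0394). Median-of-ratios scaling moved the median difference of all genes to -0.006, against 0.036, and called 25 genes. The X minus autosome difference ran from 0.0032 to 0.1264. The largest was that without a filter, with an exact permutation p of 0.0556, the smallest possible over 36 arrangements. With the filter of the main fit it was 0.0583 (exact permutation p = 0.333).

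The TPM carry no counts, so low values, such as those listed at 0, have no detection limit. With 2 replicates of a group, the fits of a single fru status or replicate number rest on 4 libraries. Where genes overlap on opposite strands, their levels cannot be told apart.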
